A study of Mus musculus with 9 samples.

Results

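The Krüppel-like factors (KLFs) examined here are 9 genes, Klf2, Klf3, Klf4, Klf5, Klf6, Klf7, Klf9, Klf10 and Klf13. The 9 genes were picked with earlier results of these data known. Their probe sets were then taken by annotation, as every probe set with 1 gene symbol that is 1 of the 9. The 9 genes, of 15964 named on the arrays, had 21 of the 36701 probe sets. Array design A held 14 of them, design B held 7, and design C held 0. The RNA came from pooled mouse retinas at postnatal day 8, which were dissociated with papain and sorted for GFP.  All pups were homozygous for a Tie2-GFP transgene, in which the promoter of the endothelial receptor Tie2 drives the fluorescent protein, and all had received intraperitoneal APB5, an antibody that neutralizes PDGFRb, from postnatal day 0 to day 7. The Tie2 promoter is also active in some blood cells. Each of the 3 designs was hybridised in 3 replicates, 9 arrays in all. No array carried cells of untreated pups, so an effect of the antibody on KLF genes cannot be read from these values. What can be read is where each KLF signal lay within its array and how far the replicates spread, and that spread may be technical, since nothing says that replicates came from separate pools of animals.

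KLFs are transcription factors whose carboxy-terminal zinc fingers bind GC-rich and CACCC sequences, while their amino-terminal parts differ and recruit activators or repressors. In endothelium, KLF2 and KLF4 are known as mediators of laminar blood flow, induced through the kinases MEKK3, MEK5 and ERK5 and the MEF2 factors, and they favour a quiescent, anti-thrombotic and anti-inflammatory state. Several family members, KLF4, KLF6 and KLF10 among them, are also known as early-response genes that are quickly induced by injury, growth factors or cell handling.

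Promoter sequence bears on this control, because MEF2 factors are known to act at the Klf2 promoter. RefSeq promoters (GRCm38.p6) were found for 7 of the 9 genes, namely Klf2, Klf3, Klf4, Klf6, Klf7, Klf9 and Klf13. The 250 bases before the annotated start are shown for Klf2, Klf4 and Klf6, the flow-regulated pair and the KLF gene with the strongest signals, with capitals marking a match to the MEF2 consensus or a GC box (GGGCGG) on either strand. Klf2 is at chr8:72318812-72319061 on the plus strand, Klf4 at chr4:55532476-55532725 on the minus strand and Klf6 at chr13:5861239-5861488 on the plus strand.
Klf2: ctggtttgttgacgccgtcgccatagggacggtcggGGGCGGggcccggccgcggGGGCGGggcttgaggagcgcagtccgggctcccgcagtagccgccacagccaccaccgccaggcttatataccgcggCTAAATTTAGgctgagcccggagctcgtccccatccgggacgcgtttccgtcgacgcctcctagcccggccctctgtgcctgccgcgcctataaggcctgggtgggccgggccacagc
Klf4: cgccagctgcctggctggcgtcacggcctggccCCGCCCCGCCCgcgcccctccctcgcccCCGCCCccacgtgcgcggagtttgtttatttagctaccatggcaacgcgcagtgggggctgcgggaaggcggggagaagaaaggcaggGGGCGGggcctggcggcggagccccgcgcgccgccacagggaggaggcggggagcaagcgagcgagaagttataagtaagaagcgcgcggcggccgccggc
Klf6: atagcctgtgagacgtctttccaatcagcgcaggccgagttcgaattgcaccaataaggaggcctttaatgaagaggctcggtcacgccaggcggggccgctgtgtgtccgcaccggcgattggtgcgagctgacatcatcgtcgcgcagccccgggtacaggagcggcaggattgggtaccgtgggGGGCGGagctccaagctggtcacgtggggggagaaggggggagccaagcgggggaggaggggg

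Of these 7 promoters only that of Klf2 held a MEF2 match in this window, the palindrome CTAAATTTAG, which begins 118 bases before the start. The same search found a MEF2 match in 2.92% of all 32851 promoter windows of this length. GC boxes were present in 6 of 7, with 4 in Klf4, 2 in Klf2 and 1 in Klf6, against 32.7% of all windows. The CACCC box, the core that KLF proteins themselves bind, was found in 5 of 7 against 52.0%, and the CCAAT box in 3 of 7 against 33.8%. A serum response element (CArG box) or a cyclic AMP response element (TGACGTCA) was not found in the 7 windows, and these occur in 1.47% and 1.55% of all windows. All motifs were searched on both strands. The GC content of the 7 windows ran from 59.2% for Klf7 to 78.4% for Klf3, beside a median of 52.4% over all windows.

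The deposited values are linear intensities, and the array medians lay between 43.6 and 44.3 on design A and between 42.9 and 44.5 on design B. The following measures place a probe set on its arrays. The first is its percentile among all probe sets of the array, from 0 to 100. The second is its log2 signal relative to the array median, given with its SE from a limma fit over all probe sets of the design, and a probe set is called higher or lower where the Benjamini-Hochberg adjusted p is under 0.05. Probes differ in hybridisation efficiency, so the order of positions below is an order of probe set signals and not of transcript levels.

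Across the family, 14 of 21 probe sets were called higher than the array median and 4 lower, and 3 did not pass the test. Over all probe sets of designs A and B, 44.2% were called higher and 44.2% lower. In all, 9 probe sets lay in the high band, defined as above percentile 75 on all 3 arrays, which is 42.9% of the KLF probe sets beside 22.7% of all. Since the genes were picked with earlier results known, these shares describe the 21 sets and are no independent evidence that the family lies high. The high-band sets belonged to 5 of the 9 genes, Klf3, Klf4, Klf6, Klf7 and Klf10. Of the 13674 named genes of designs A and B, 32.7% had at least 1 such probe set. A gene with more probe sets has more chances to count, so this comparison favours the KLF genes. They had 21 sets for 9 genes, whereas the 13674 genes shared 10833 single-symbol sets of design A and 10581 of design B. The median KLF probe set lay at percentile 65.1, against 50.03 for all. Klf3 and Klf4 had probe sets called in both directions.

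**Figure D1:**
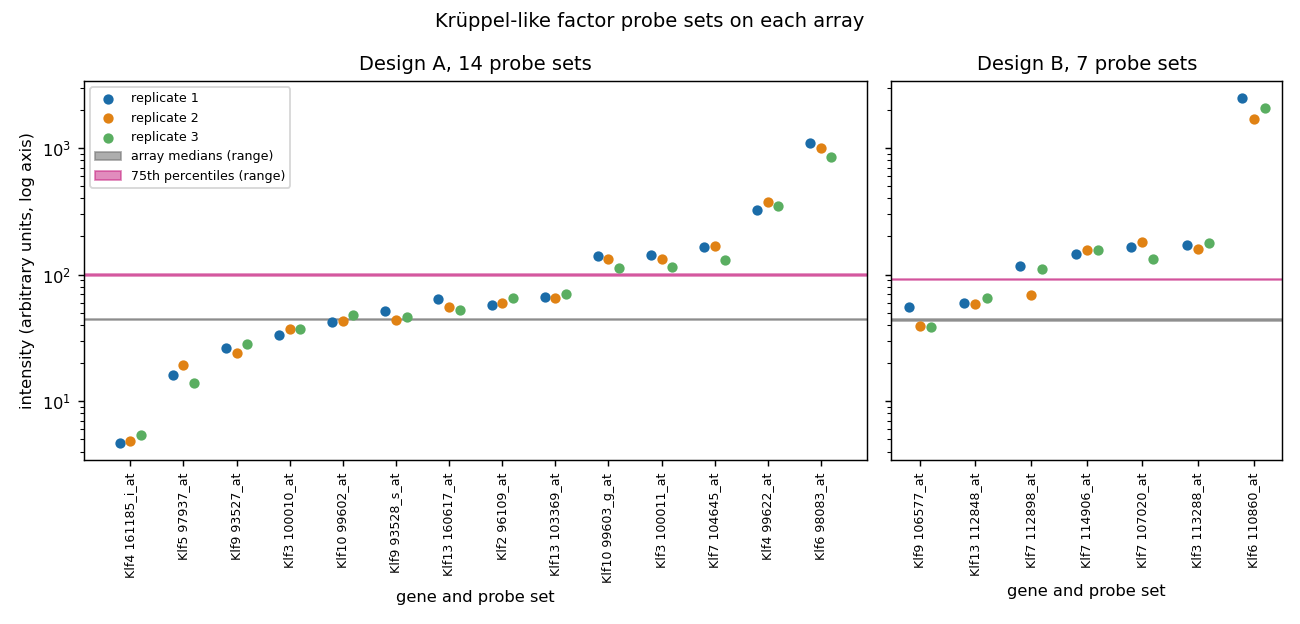
Intensity of the 21 KLF probe sets on each of the 3 arrays of designs A and B, on a log axis in arbitrary units, ordered by mean intensity. Points are single arrays, the grey band is the range of the array medians and the pink band that of the 75th percentiles; both Klf6 probe sets stand above the others of their design, at 844 to 1101 on design A and 1702 to 2469 on design B.

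Klf6, a GC-box-binding factor known from wound responses and vascular injury, gave the strongest KLF signals on both designs. Its design A probe set (98083_at) read 1101, 996 and 844 in replicates 1, 2 and 3, at percentile 98.1 ± 0.29 (SD, n = 3). Its design B probe set (110860_at) read 2469, 1702 and 2058, at percentile 99.9 on each array, with 13 of 12411 probe sets of that design having a higher mean. Both stayed far above the medians on every array, by 4.47 ± 0.096 log2 units on design A (SE, limma, adjusted p = 8.4e-08) and by 5.55 ± 0.11 on design B (adjusted p = 8.9e-08). The design B set spread by 0.52 log2 units between replicates, which is small beside its distance from the median.

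Klf4, which in endothelium is induced by flow alongside Klf2, had 2 probe sets at opposite ends of design A. The plain set (99622_at) read 326, 376 and 346, at percentile 92.9 ± 0.66 and 2.99 ± 0.076 log2 units above the median (SE, adjusted p = 1.4e-07). The other set (161185_i_at), whose name marks it as holding an incomplete choice of probes, read 4.68, 4.87 and 5.41, at percentile 1.49 ± 0.19 and lower than the median by the same test (adjusted p = 1.2e-07). The replicates of each set lay close together, so the gap of 91.4 percentile points is a difference between probe sets and not between arrays. Among the 2073 genes with several probe sets on design A, 25 had a gap at least as wide (1.21%), and the median gap was 29.9 points. Whether the low set detects the Klf4 transcript was not tested.

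Klf2, known in endothelium as a gene induced by laminar flow, was measured by 1 probe set on design A (96109_at). It read 57.3, 59.99 and 65.3, at percentile 61.7 ± 2.2 (SD, n = 3). This was above the median on all 3 arrays, by 0.47 ± 0.075 log2 units (SE, limma, adjusted p = 0.00087), and outside the high band on all 3. Its signal thus sat near the middle of the array, where a few intensity units move a probe set by several percentile points.

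Klf7, closest in sequence to Klf6 and known mostly from neurons, lay above the median on every probe set. On design A (104645_at) it read 164, 170 and 131, at percentile 83.3 ± 1.8. On design B, 107020_at read 166, 182 and 133 (percentile 86.7 ± 2.95) and 114906_at read 146, 155 and 157 (percentile 86.1 ± 0.87). The remaining set, 112898_at, read 117, 69.6 and 111, at percentile 75.7 ± 7.6. All 4 were called higher than the median, with adjusted p between 5.3e-07 and 0.00017 (limma). The low replicate 2 kept 112898_at out of the high band and gave it the widest spread of the family, 0.72 log2 units, while replicate 2 was not the lowest in the other design B sets of Klf7.

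Klf5, a factor of proliferating epithelium and of activated smooth muscle, was measured by 1 probe set, well below the median. Klf5 and Klf9 were the members with no probe set called higher. The Klf5 set (97937_at) read 16.02, 19.2 and 13.9, at percentile 14.6 ± 4.2 and 1.44 log2 units below the median (limma, adjusted p = 1.1e-05). A low position does not show that the transcript was absent.

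Klf3, a repressor that recruits the corepressor CtBP, had 3 probe sets. On design A, 100011_at read 142, 132 and 114 (percentile 80.04 ± 1.6), and on design B, 113288_at read 171, 159 and 178 (percentile 87.7 ± 0.65). Both were called higher, by 1.55 ± 0.089 and 1.95 ± 0.074 log2 units (SE, limma, adjusted p = 3.9e-06 and 4.1e-07). The other design A set, 100010_at, read 33.3, 36.8 and 37.5, at percentile 41.9 ± 2.0, and was called lower (adjusted p = 0.0075). That call rests on a distance of -0.30 log2 units and was lost without replicate 1, at -0.25 (adjusted p = 0.059), and against the 40th percentile of the array the set lay at 0.066 (adjusted p = 0.42).

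Klf10, induced by TGF-beta and a partner of the corepressor SIN3A, also differed between its 2 design A sets. The set marked as sharing probes within its group (99603_g_at) read 139, 133 and 113, at percentile 79.9 ± 1.4 and called higher by 1.54 ± 0.088 log2 units (SE, limma, adjusted p = 3.8e-06). The plain set (99602_at) read 42.3, 43.2 and 47.9, at percentile 50.5 ± 2.4, and was not distinguishable from the median (adjusted p = 0.88). The 29.4-point gap between them is close to the median gap of genes with several sets, 29.9 points, and 50.8% of those genes had one at least as wide.

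Klf13, another SIN3A-binding member, had the smallest gap between its sets on 1 design of the members with several there. Its sets on design A read 67.04, 65.7 and 70.8 (103369_at) and 64.7, 55.8 and 52.1 (160617_at), and its set on design B read 59.9, 58.5 and 64.9 (112848_at). They lay at percentiles 65.1 ± 1.5, 59.5 ± 3.5 and 62.6 ± 1.4, and all 3 were called higher than the median, by 0.38 to 0.62 log2 units (limma, adjusted p between 0.00014 and 0.0057). None reached the high band.

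Klf9, which is induced by glucocorticoid and thyroid hormone and opposes proliferation, lay at or below the median. On design A, 93527_at read 26.1, 23.9 and 28.2 (percentile 29.2 ± 2.5) and was called lower by the limma fit (adjusted p = 8.8e-05). The set marked as shared between transcripts, 93528_s_at, read 51.7, 43.5 and 46.1 (percentile 52.5 ± 3.6), and the design B set 106577_at read 55.7, 39.5 and 38.2 (percentile 49.8 ± 8.3). Neither of these passed the test (adjusted p = 0.31 and 0.97). In both, replicate 1 was the highest, and in 106577_at it alone stood above the array median.

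**Figure D2:**
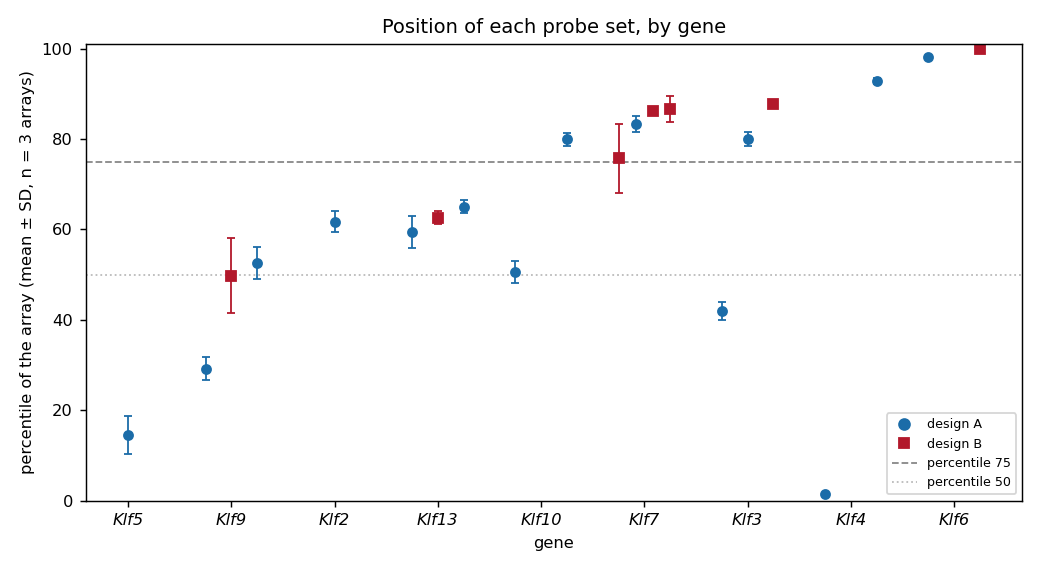
Mean percentile of each KLF probe set with its SD over 3 arrays, by gene; circles are design A, squares design B, and the lines mark percentiles 75 and 50. Klf6 lies at percentiles 98.1 and 99.9, Klf7 between 75.7 and 86.7 and Klf13 between 59.5 and 65.1, whereas the 2 sets of Klf4 lie at 1.49 and 92.9.

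Probe sets of 1 gene on the same design agreed more for some members than for others. The gap was 5.57 percentile points for Klf13 and 23.3 for Klf9 on design A and 10.9 for the 3 Klf7 sets on design B, where the median gene with several sets had a gap of 32.6 points. For Klf3 it was 38.1 points on design A. Thus all sets of Klf7 and Klf13 were called higher, and Klf6 had 1 set per design and was high on both. The calls of Klf3, Klf4, Klf9 and Klf10 depended on which set was read. Of the design A genes with several sets, 38.4% had a gap at least as wide as that of Klf3 and 58.9% as that of Klf9.

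Between replicates, the range of the centred log2 signal exceeded 1 log2 unit in 0 of 21 KLF probe sets, beside 1.62% of all. At a lower threshold of 0.5, chosen after the values were seen, 4 of 21 exceeded it (19.0% beside 13.5% of all), namely Klf6 110860_at, Klf7 107020_at and 112898_at, and Klf9 106577_at, all on design B. The median range was 0.27 log2 units for KLF sets and 0.25 for all. On design A, replicate 3 gave the lowest value in 4 of the 5 high-band KLF sets (Klf3 100011_at, Klf6, Klf7 and Klf10 99603_g_at) and the highest value in none of them. Of all 2850 high-band probe sets of the design, 58.3% were lowest in replicate 3 and 11.9% highest. The median deviation of that replicate was -0.19 log2 units for the 5 KLF sets and -0.085 for all 2850, so strong probe sets in general read lower there. Among all 14 design A sets, replicate 3 was the lowest in 6 and the highest in 6.

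**Figure D3:**
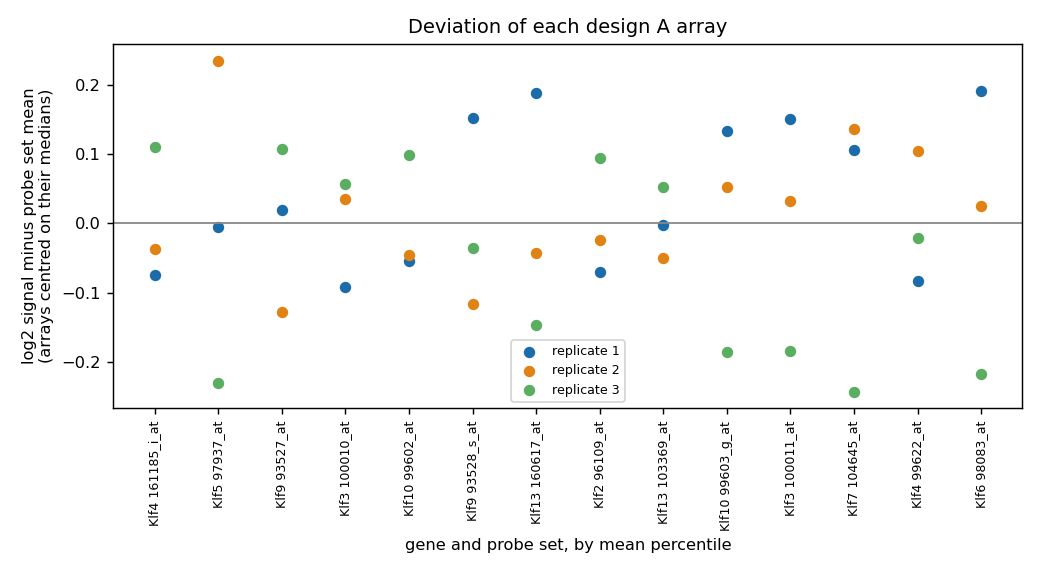
Deviation of each design A array from the probe set's mean, in log2 units after centring each array on its median, for the 14 KLF probe sets ordered by mean percentile. Replicate 3 lies below 0 in the 5 sets of the high band, and no deviation exceeds 0.25 in size.

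Other members of the KLF and SP family, which share the zinc finger domain, spread over a similar span. Of 16 listed genes 11 were measured, by 26 probe sets on the 3 designs, of which 14 were called higher and 8 lower. Over all 3 designs, 44.1% of probe sets were called higher and 44% lower, and 22.6% lay in the high band, which held 10 of the 26. The median of the list was percentile 65.7. By their strongest sets, Sp1 lay at 98.1 ± 0.85, Klf11, a relative of Klf10, at 97.7 ± 0.19, and Klf16 at 95.6 ± 0.62, each on sets whose names mark shared, reduced or incomplete probes, and Klf15 lay lowest at 47.6 ± 5.9 (SD, n = 3). Other Sp1 sets lay at 81.4 ± 4.7 on design A and at 97.7 ± 0.34 and 44.2 ± 3.6 on design B, the last called lower.

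Upstream of KLF2 and KLF4, the flow pathway and the CCM complex that restrains it were measured by 39 probe sets. All 15 listed genes were measured. Of the 39 sets, 24 were called higher, 12 lower, and 17 (43.6%) lay in the high band, with a median at percentile 67.004. Among all probe sets of the 3 designs, 44.1% were called higher, 44% lower and 22.6% lay in the high band. The stronger set of Heg1, the membrane receptor that anchors the CCM proteins, read 3280, 3164 and 3403 and had 4 probe sets of design B above it. The mechanosensitive channel gene Piezo1 read 2197, 1897 and 1878 (percentile 99.9), and the strongest Mef2a set lay at 96.0 ± 0.18. Other Mef2a sets lay at 94.0 ± 0.50 on design B and at 81.4 ± 2.3 and 2.88 ± 2.6 on design A, the last called lower. Mef2c ranged from 18.1 ± 4.9 (design A) to 95.5 ± 1.04 (design B) over 7 sets. The CCM gene Krit1 ranged from 6.26 ± 1.5 (design B) to 93.8 ± 0.85 (design C) over 7. Among the kinase genes, Map2k5 (MEK5) had a set in the high band, at 83.6 ± 2.1 on design A, while its design B set lay at 64.3 ± 2.6 and its design C set at 42.5 ± 3.2. The single set of Mapk7 (ERK5) lay at 46.9 ± 1.7 and did not pass the test (limma, adjusted p = 0.16), and Map3k3 (MEKK3) ranged from 23.7 ± 0.29 to 67.8 ± 0.73 over 3 sets. With each gene taken by its strongest set, Map3k2 was the lowest of the list, at 30.2 ± 1.5.

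Genes known to follow KLF2 in endothelium were found over the whole range of positions. Of the list known to rise with KLF2, all 10 were measured, by 19 probe sets. Of these, 8 were called higher, 6 lower and 3 (15.8%) lay in the high band, with a median at percentile 50.6. For all probe sets of the 3 designs the shares were 44.1% higher, 44% lower and 22.6% in the high band. The nitric oxide synthase gene Nos3 read 74.2, 112.8 and 71.97 (percentile 70.6 ± 5.4), and the sets of Thbd, encoding the anticoagulant thrombomodulin, lay at 14.9 ± 3.3 and 50.6 ± 6.4. With each gene taken by its strongest set, Cav1, Tek and Plat were the highest, at 97.1 ± 0.12, 92.6 ± 0.26 and 91.5 ± 0.70, and Nppc the lowest, at 29.2 ± 3.8. Other sets lay lower on their arrays, at 50.7 ± 7.3 for Cav1 (design A), and at 61.1 ± 4.9 for Plat and 1.61 ± 1.25 for Nppc (both design C). Of the list known to fall with KLF2, 7 of 8 were measured, by 12 probe sets. Of these, 5 were called higher, 5 lower and 4 (33.3%) lay in the high band, with a median at percentile 47.7. By strongest sets, Kdr lay at 99.3 ± 0.27, the endothelin gene Edn1 at 97.3 ± 0.50 and Vcam1 at 95.8 ± 1.05, while the tissue factor gene F3 was the lowest, at 10.5 ± 0.25. Weaker sets of the same genes lay at 38.6 ± 8.2 for Edn1 and at 36.9 ± 2.9 and 45.9 ± 6.1 for Vcam1, all on design A. The weaker set of Kdr lay at 49.6 ± 1.6 on design C and that of F3 at 4.6 ± 2.1 on design B. These are levels within 1 condition, so they do not measure KLF2 activity.

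Cofactors and ubiquitin ligases of KLF proteins lay over a wide range, with 13 of 14 genes measured by 30 probe sets. Of these, 17 were called higher, 10 lower and 10 (33.3%) lay in the high band (median percentile 60.7). The general shares on the 3 designs were 44.1% higher, 44% lower and 22.6% in the high band. Ctbp1, a corepressor used by KLF3, lay at percentile 97.6 ± 0.33, and Ctbp2 between 10.1 ± 2.6 (design B) and 82.2 ± 3.1 (design A) over 4 sets. Sin3a, the corepressor of the Klf9, Klf10 and Klf13 group, lay at 76.7 ± 2.8. The acetyltransferase gene Crebbp ranged from 48.9 ± 8.2 to 93.4 ± 3.2 over 5 sets. Of the 5 sets of Wwp1, a ligase that targets KLF2 and KLF5, 1 was high, at 93.2 ± 1.97, and the other 4 were called lower, from 1.15 ± 1.05 to 11.98 ± 4.2. With each gene taken by its strongest set, Ep300 was the lowest of the list, at 25.7 ± 1.2, and its other set lay at 8.6 ± 3.6 (SD, n = 3 each).

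**Figure D4:**
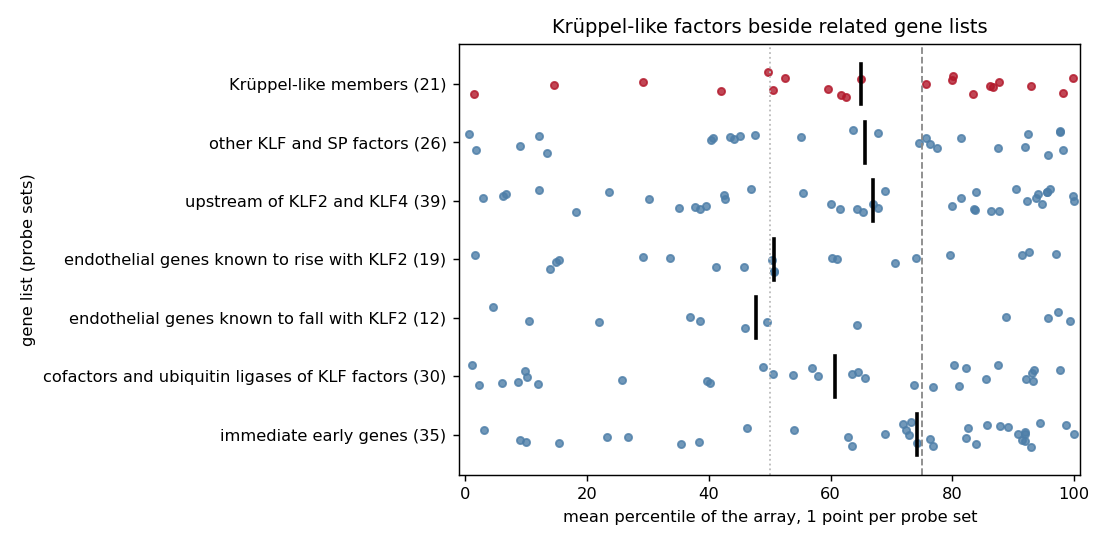
Mean percentile of every probe set of the KLF members (red) and of 6 related gene lists (blue), 1 point per probe set, with the median of each list as a black bar and lines at percentiles 50 and 75. The median is 65.1 for the 21 member sets and 74.3 for the 35 immediate early sets, the highest of the 7 rows.

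Immediate early genes, induced within minutes of stress or tissue dissociation, had most of their probe sets called higher. Of 21 listed genes 20 were measured, by 35 probe sets. Of these, 25 were called higher, 8 lower and 15 (42.9%) lay in the high band, with a median at percentile 74.3. The shares over all probe sets of the 3 designs were 44.1% higher, 44% lower and 22.6% in the high band. The list was chosen with earlier results known, so its counts are no independent evidence that it lies high. Fos read 997, 1305 and 1329 (160901_at, percentile 98.7 ± 0.40), Jun 187, 245 and 203 (percentile 87.8 ± 1.5) and Egr1 131, 242 and 198 (98579_at, percentile 85.7 ± 4.8). The sets of Fosl2 lay at 99.9 and 94.3 ± 0.94 on design B and at 46.3 ± 2.9 on design A, where the set was not called. Atf3 ranged from 38.3 ± 7.5 to 91.5 ± 1.2 over 3 sets, Ier2 lay at 92.9 ± 0.69, and the single set of Myc was the lowest by strongest sets, at 9.04 ± 2.1. Other sets of Fos and Egr1 lay lower on design A, at 76.8 ± 6.05 and 3.02 ± 0.54, and a design C set of Jun lay at 9.92 ± 1.8. The summed design A intensity of the immediate early list was 3945, 4745 and 4328 in replicates 1, 2 and 3, highest in replicate 2. On that design Klf6 and Klf10 (99603_g_at) were highest in replicate 1 and Klf4 (99622_at) in replicate 2. Of all high-band probe sets of the design, 50.3% were highest in replicate 2 and 37.8% in replicate 1. The part of cell handling in the KLF signals was not tested.

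Among cell type markers, the endothelial list had the highest median. Its members were called higher in 18 of 22 probe sets and lay in the high band in 16 (72.7%), with a median at percentile 94.8. Beside this, 44.1% of all probe sets of the 3 designs were called higher and 22.6% lay in the high band. In the high band lay 0 of 17 mural, 0 of 9 photoreceptor, 0 of 28 granulocyte and lymphocyte, 0 of 7 erythroid and platelet, 1 of 17 glial, 2 of 19 macrophage and microglial and 3 of 19 neuronal probe sets, and no marker set was at 0 on an array. Summed marker intensities on design A ran from 10886 to 12654 for endothelial, 323 to 369 for mural and 836 to 942 for macrophage and microglial lists. The neuronal list read 2435, 1547 and 1751, of which 1 reduced set of Pcp2 (102376_r_at) gave 1898, 1008 and 1289. Of the 19 neuronal sets on all designs, 13 were called lower, and their median lay at percentile 33.5. The 19 macrophage and microglial sets had 10 called lower and 5 called higher, with a median at percentile 42.0. The strongest sets of other cell types were Laptm5 of macrophages on design C, at percentile 98.8 ± 0.88, and Pcp2 of bipolar cells on design A, at 98.8 ± 0.70, both on sets marked as shared or reduced. Klf1, the erythroid KLF, lay at percentile 63.7 ± 1.1 on a design where the alpha globin gene Hba-a1 lay at 75.1 ± 1.3. How much of each KLF signal came from cells other than endothelium was not tested, and in such sorted pools fewer cells of a type and less RNA per cell cannot be told apart.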

How the data were processed

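Expression was measured on Affymetrix oligonucleotide arrays, 3 replicates on each of designs A, B and C, all of APB5-treated Tie2-GFP pups. Per the labels' protocols, RNA was amplified and biotin-labelled. The authors deposited linear intensities, 1 per probe set and array. No source used here gives the probe summary or scaling method. Of 36701 probe sets, 29131 had 1 gene symbol in the platform annotation, 724 several and 6846 were unnamed here, and symbols were updated by Entrez identifier from RefSeq (GRCm38.p6).

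Intensities were log2 transformed, with 7 values of 0 set to the smallest positive value of their array, and centred on each array's median. An intercept-only model was fitted with limma 3.58.1 (R 4.3.3) over all probe sets of a design and adjusted by the Benjamini-Hochberg method. The fit was first run on simulated data in which most probe sets lay at the median. Most probe sets of these arrays were called away from it, so that run does not bear on the calls given here. Designs share no probe sets and were not tested against each other. Each percentile is a position on its own design, also where sets of 1 gene on several designs are listed together. Close medians may come from the authors' scaling. The number of arrays limits the precision. Percentiles were taken among all probe sets of an array. Named were all members, the 3 highest and the lowest gene of each list by its strongest probe set, and 13 preset genes; weaker probe sets are given beside the strongest for most of them. Marker lists are given by counts rather than by this rule; Laptm5, Pcp2, Hba-a1 and Klf1 were singled out, and the 0.5 log2 threshold for replicate range set, after the values were seen; the planned threshold was 1. The members and lists were chosen with earlier results of these data known. Alternatives were a pseudocount of 50, a filter at percentile 20, an intensity trend, quantile normalization, the 40th percentile as reference, plain probe set names only, percentiles 90 and 50, and leaving out each replicate.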

Additional observations from a re-analysis of the deposited data

How the results depend on the processing

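The count of KLF probe sets called higher than the array median, 14, stayed within 1.5 times under every alternative tried, and that of sets called lower, 4, did so except with the filter at percentile 20, which removed Klf5 and the low Klf4 set and left 2. Above percentile 90 on all arrays lay 3 sets and above percentile 50 lay 14, against 9 above percentile 75. The shares of all probe sets at percentiles 90 and 50 and under the alternatives were not taken. These counts therefore show only how the KLF counts move with the setting, and do not compare KLF sets with all probe sets. Of 184 log2 values under alternatives, 175 kept their direction and side of the threshold. The filter and the intensity trend leave the log2 value itself unchanged, so direction could not turn under them. The 40th percentile reference could only raise a value. The tally includes these settings and is no measure of stability in direction. With the 40th percentile as reference, Klf3 100010_at turned to 0.066 (limma, adjusted p = 0.42), and Klf9 93528_s_at, Klf9 106577_at and Klf10 99602_at passed as higher. Klf9 106577_at, not called with all arrays, ranged from -0.17 to 0.12 without a replicate and was at -0.028 among plain names. Klf10 99602_at, also not called, ranged from -0.037 to 0.040 and was at -0.062 among plain names. The planned count of sets with a range above 1 log2 unit was 0. The count above 0.5, a threshold chosen after seeing the data, was 4, and 1 after adding 50 and 1 to 2 without a replicate. Adding 50 compresses ranges and fewer arrays cannot widen them, so these alternatives could only lower either count and say nothing about its stability. No paired analysis was possible because the designs hold different probe sets and no groups were compared. Weak signals near the array's lower end, such as Klf5, limit what can be said of low transcripts.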
